A study of Mus musculus with 4 samples.

Results

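The 8 genes described here belong to the mouse Prame family and carry the names Gm13128, Pramef17, Pramel6, Pramel7, Pramef8, Pramef12, Pramel4 and Pramel5. They were picked by symbol from the 54838 gene identifiers of the count tables. Their choice was made with the result of the knock-in comparison known: Gm13128 was among the few genes that passed its threshold. The differences between the lines are therefore a description: no p-value is given for a member, and the number of members past the threshold stands only beside the same share over all genes.

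The series holds RNA sequencing of the mouse embryonic stem cell line E14 (E14Tg2a.4), which is of strain 129/Ola. The groups were 2 libraries of the unedited wild-type line and 2 of its p300 knock-in derivative MLC460, in which CRISPR/Cas9 was used to fuse mEGFP, a monomeric green fluorescent protein, to the N-terminus of p300, a histone acetyltransferase and transcriptional coactivator. Both lines grew on gelatin in serum with leukemia inhibitory factor (LIF), and total RNA was sequenced with an Illumina TruSeq RNA kit that the labels do not describe as marking strand. Only 1 knock-in line was sampled, so what the tag does and what arose while that line was derived cannot be told apart, and the design text calls the 2 libraries of a line biological replicates without saying what separated them.

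Prame family proteins are built of leucine-rich repeats, and several of them serve as substrate receptors of cullin 2 ubiquitin ligases, to which they bind through the elongin B and C adaptors. The mouse genome holds many copies, most of them in tandem on chromosome 4, and expression is known mainly from germ cells, oocytes, early embryos and pluripotent cells. Pramel7 marks the inner cell mass, acts downstream of LIF and STAT3 and targets UHRF1, the partner of the maintenance DNA methyltransferase, for degradation. Pramel6 is its neighbour with a related role in naive pluripotency, and Pramef12 is needed for spermatogonial stem cells.

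The symbols above are those of GENCODE M21, and RefSeq names some of the same genes differently. Gm13128 (ENSMUSG00000078508) is Pramel30 and lies on GRCm38 chromosome 4, 144330249 to 144333465, on the plus strand. Pramef17 (ENSMUSG00000078509) is Pramel14, at 143991119 to 143994369 of the same chromosome on the minus strand, 335.9 kb away. Pramef8 (ENSMUSG00000046862) is Pramel12, at 143412426 to 143421091, and Pramef12 (ENSMUSG00000028591) is Pramel13, at 144391674 to 144408464. Pramel4 (ENSMUSG00000073724, 144059126 to 144069327) and Pramel5 (ENSMUSG00000036749, 144270633 to 144280488) lie between these. Pramel6 (ENSMUSG00000025838, 87506565 to 87510872) and Pramel7 (ENSMUSG00000025839, 87489087 to 87497093) stand apart from the cluster, on chromosome 2, with 9.47 kb between them.

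The genes with the largest differences between the lines, Gm13128 and Pramef17, are close to identical copies of each other. Over 1425 coding bases of the reference genome they differ at 10, an identity of 99.3%, and the longest run without a difference is 483 bases. A stretch of exon 3, coding bases 1338 to 1397, holds 3 of the differences, which are in capitals in these lines from chr4:144333058-144333117 (plus strand) and chr4:143991475-143991534 (minus strand):
Gm13128: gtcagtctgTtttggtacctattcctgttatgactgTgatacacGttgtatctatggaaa
Pramef17: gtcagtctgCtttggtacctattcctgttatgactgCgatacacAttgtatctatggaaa
A stretch of exon 2, coding bases 348 to 407, holds 2 more, at chr4:144331172-144331231 (plus strand) and chr4:143993387-143993446 (minus strand):
Gm13128: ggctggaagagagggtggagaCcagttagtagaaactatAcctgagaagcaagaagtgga
Pramef17: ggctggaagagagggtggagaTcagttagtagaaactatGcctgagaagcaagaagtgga
Only reads that cover such differing bases can be assigned to 1 of the 2 genes, and the counts leave out reads that fit several places.

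The similarity reached less far among the other members. Pramel7, though on another chromosome, was the next most similar to this pair, with 81.2% coding identity to Gm13128 and 80.9% to Pramef17. Its identity to its own neighbour Pramel6 was 58.8%. Pramel4 and Pramel5 shared 93.5%, and Pramef8 shared 68.7% with Gm13128, 65.7% with Pramel7 and 66.3% with Pramef12.

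**Figure D1:**
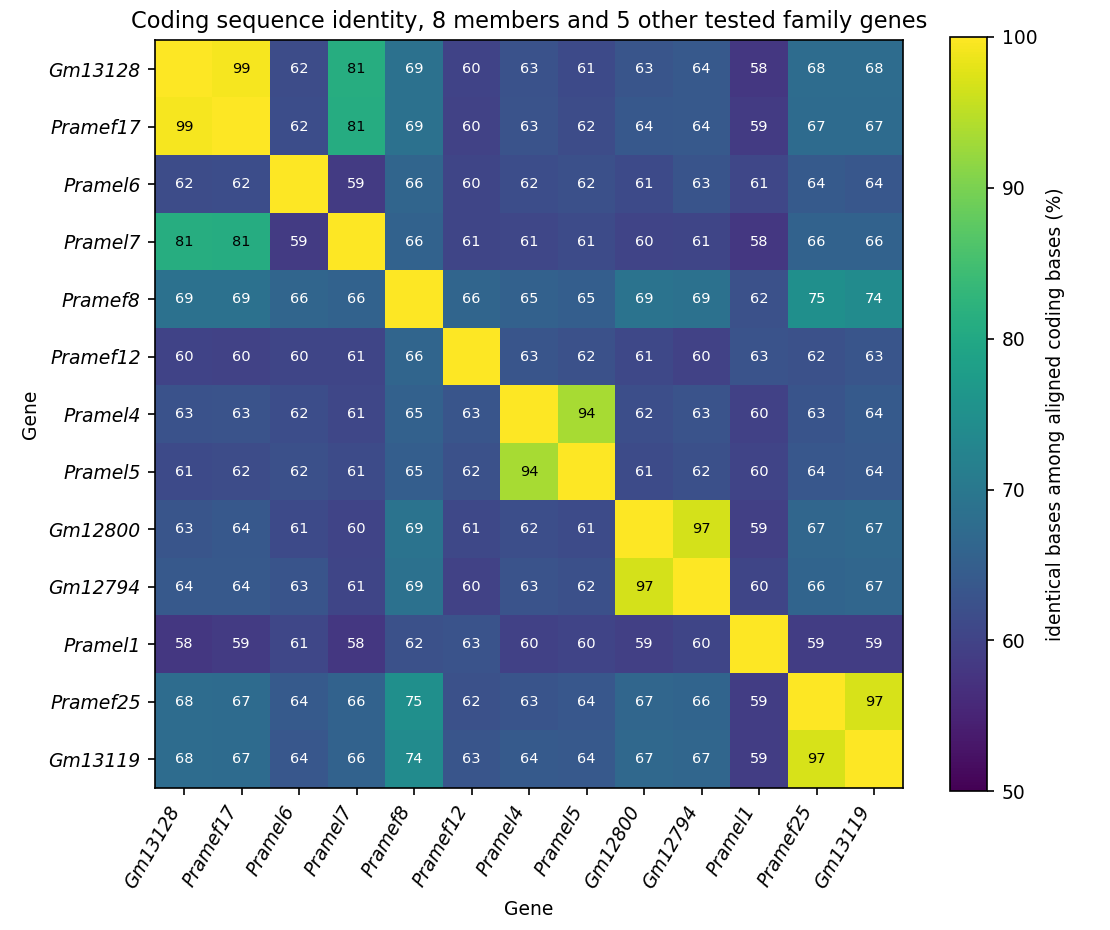
Percentage of identical bases in pairwise alignments of the coding sequences (colour and number), with genes in rows and columns. The bright off-diagonal cells are the pairs Gm13128 and Pramef17, Pramel4 and Pramel5, Gm12800 and Gm12794, and Pramef25 and Gm13119, and Pramel7 stands at 81% to Gm13128 and Pramef17.

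How far this could hide reads was measured as the share of stretches in a gene's transcript (the one with the longest coding sequence) that also occur, letter for letter, in a transcript of another gene. Of the 50-base stretches of Gm13128, 73.8% were repeated in Pramef17, and 56.6% of its 100-base stretches were. For Pramef17 the shares were 73.5% and 56.3%, in every case with Gm13128. Pramel4 had 94.1% of its 50-base and 86.7% of its 100-base stretches repeated elsewhere, mostly in Gm13102, while Pramel5 had 27.1% and 4.05%. Pramel6, Pramef8 and Pramef12 had none at any length, and Pramel7 had 0.442% at 50 bases and none at 75 or 100. The counts of these 4 genes thus rest on sequence that no other annotated transcript repeats, or almost so. The read length is not given in the sources used here, and the reference is from C57BL/6J mice while the cells are 129/Ola, so the number of copies and their differences in these cells were not tested.

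**Figure D2:**
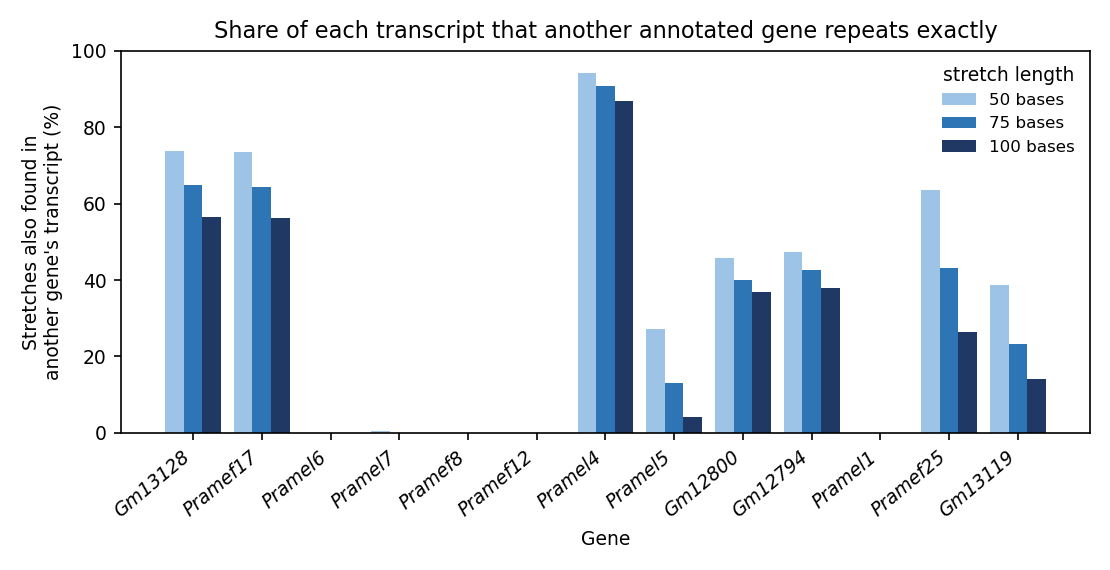
Share of the 50, 75 and 100 base stretches of each gene's transcript with the longest coding sequence (bars, in percent, from 0) that also occur in a transcript of another annotated gene. Pramel4, Gm13128 and Pramef17 stand highest among the members, and Pramel6, Pramef8 and Pramef12 are at 0.

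Gm13128 and Pramef17 also resembled each other upstream. The annotated transcripts of both begin at the start codon, so the 250 bases before the RefSeq start directly precede the coding sequence, and how much of them is transcribed was not tested. These windows, at chr4:144329999-144330248 (plus strand) and chr4:143994370-143994619 (minus strand) of GRCm38.p6, were 98.0% identical over 249 aligned bases, and they are shown with CG dinucleotides, the sites of DNA methylation, in capitals:
Gm13128: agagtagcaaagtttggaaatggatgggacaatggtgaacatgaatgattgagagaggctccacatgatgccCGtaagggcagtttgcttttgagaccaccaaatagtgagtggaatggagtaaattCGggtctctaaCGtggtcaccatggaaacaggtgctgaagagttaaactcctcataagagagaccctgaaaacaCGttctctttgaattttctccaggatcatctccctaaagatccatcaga
Pramef17: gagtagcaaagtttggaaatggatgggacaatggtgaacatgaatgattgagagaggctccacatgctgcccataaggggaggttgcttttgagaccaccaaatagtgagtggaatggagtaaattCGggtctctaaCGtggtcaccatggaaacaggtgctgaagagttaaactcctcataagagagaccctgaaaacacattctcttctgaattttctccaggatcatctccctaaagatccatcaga
Gm13128 had 4 CG dinucleotides here and Pramef17 had 2. The windows of Pramef12, Pramel6, Pramel7, Pramel4 and Pramel5 held 6, 2, 1, 1 and 0, and no window was found for Pramef8. Over all 32851 RefSeq windows the median was 6, with quartiles of 2 and 16. The letters TATAAA, TTCNNNGAA (the STAT motif), CACGTG (the E-box), ATGCAAAT (the octamer) and GGGCGG (the GC box) occurred on neither strand of the 7 windows. Among all windows 12.4%, 7.02%, 6.02%, 1.60% and 32.7% held them. The Pramel7 window, chr2:87492419-87492668 (minus strand), lies inside the GENCODE span of the gene, which begins at 87497093. Of its bases 26 are annotated as Pramel7 exon, and the bases before that outer start were not searched. The Pramel5 window holds 22 exon bases.

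Counts assigned to genes totalled 18946731 to 26553998 per library. The tagged gene Ep300 had 209 and 210 CPM (read counts scaled to library size by TMM) in the wild-type and 181 and 210 CPM in the knock-in libraries, and the groups overlapped. The wild-type libraries differed more from each other than the knock-in libraries did (chi-square per degree of freedom 49.1 against 6.0), so values without wild-type 1 and without wild-type 2 stand beside the differences below. Markers of embryonic stem cells (Pou5f1, Sox2, Nanog, Zfp42, Esrrb and Dppa5a) were present in every library, with 4200 to 4756 CPM in sum.

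Of the 8 members, 5 had at least 10 reads in every library: Pramef12, Pramef8, Gm13128, Pramef17 and Pramel6. Pramel7 fell short of this in the knock-in libraries, and Pramel4 and Pramel5 had next to no reads. Levels are compared between genes as CPM per kilobase of exon (CPM per kb). On that scale the order was Pramef12, Pramef8, Gm13128, Pramef17, Pramel6 and Pramel7, in wild-type and in knock-in cells alike. Within wild-type cells no neighbours in this order overlapped. Within knock-in cells Pramef17, at 0.398 and 0.336 CPM per kb, lay just above Pramel6, at 0.315 and 0.257. With column 3 counts alone, the reads matched to one strand, this order was reversed in the knock-in libraries: Pramel6 had 0.839 and 0.4998 CPM and Pramef17 0.610 and 0.2999 CPM.

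**Figure D3:**
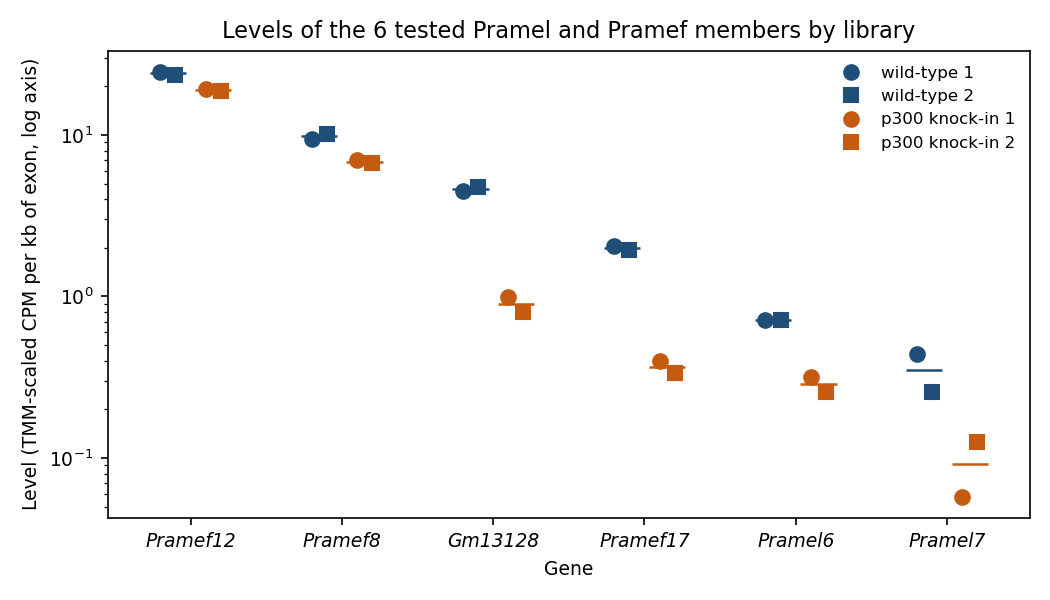
Level of the 6 members with a fitted difference in each library, in TMM-scaled CPM per kb of exon on a log axis. Circles and squares are replicates 1 and 2, blue is wild-type, orange is knock-in and short lines are group means. The wild-type libraries lie above the knock-in libraries for each gene, with the widest gaps for Gm13128 and Pramef17.

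Pramef12, the spermatogonial stem cell gene, was the most abundant member. It had 24.5 and 23.5 CPM per kb in the wild-type libraries, replicate 1 first here and below, and 19.2 and 18.7 in the knock-in libraries, and its mean lay above 83.4% of the 15191 genes tested. Both knock-in libraries were below both wild-type libraries. The means were 61.8 ± 1.88 CPM for wild-type and 48.8 ± 0.94 for knock-in cells (SD, n = 2 each), 1.26-fold lower in the latter. The log2 fold change, knock-in over wild-type, was -0.34 (SE 0.15). It was -0.31 without wild-type 1 and -0.38 without wild-type 2. The antisense gene Pramef12os lies within its span over 1434 bases, introns included, and had 10 reads over all libraries.

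Pramef8, whose function is little described, came next. It had 9.42 and 10.2 CPM per kb in the wild-type and 7.01 and 6.67 in the knock-in libraries, above 65.1% of tested genes on average. The groups did not overlap. In CPM the means were 40.9 ± 2.24 and 28.6 ± 1.02 (SD, n = 2 each). The log2 fold change was -0.52 (SE 0.16), or -0.57 leaving out wild-type 1 and -0.47 leaving out wild-type 2. Pramef12 stood 2.60 and 2.31 times as high as Pramef8 per kb in the wild-type libraries, and 2.75 and 2.81 times in the knock-in libraries.

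Gm13128, a gene known by its model name alone in GENCODE, had 217 and 183 reads in the wild-type and 42 and 26 in the knock-in libraries. That is 7.88 and 8.31 CPM against 1.72 and 1.39, or 4.52 and 4.76 CPM per kb against 0.988 and 0.798. The groups were far apart and each pair was close together. The means were 8.10 ± 0.30 and 1.56 ± 0.24 CPM (SD, n = 2 each), 5.20-fold lower in knock-in cells, with a log2 fold change of -2.36 (SE 0.27) that was -2.40 without wild-type 1 and -2.34 without wild-type 2. Its mean level per kb over all libraries, the low knock-in values included, exceeded that of 42.5% of tested genes, and reads shared with Pramef17 are missing from it.

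Pramef17, its near copy, had 99 and 75 reads in the wild-type and 17 and 11 in the knock-in libraries. Its CPM were 3.60 and 3.41 against 0.698 and 0.589. These groups did not overlap either, and the ratio was 5.44-fold, with a log2 fold change of -2.42 (SE 0.34), -2.38 without wild-type 1 and -2.48 without wild-type 2. Summed, the pair had 11.5 and 11.7 CPM against 2.42 and 1.98, with means of 11.6 ± 0.17 and 2.20 ± 0.31 CPM (SD, n = 2 each), 5.27-fold lower in knock-in cells. Per kb Gm13128 was 2.20 and 2.45 times as high as Pramef17 in the wild-type libraries, and 2.48 and 2.37 times in the knock-in libraries. The proportion between the copies thus lay in one narrow range in both lines, while the level of both differed.

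Pramel6, a naive pluripotency gene, was low. It had 41 and 33 reads in the wild-type and 16 and 10 in the knock-in libraries, which is 1.49 and 1.5 against 0.657 and 0.535 CPM. The wild-type libraries were nearly equal and both lay above the knock-in libraries. The ratio was 2.51-fold and the log2 fold change -1.31 (SE 0.41), and it was -1.31 without wild-type 1 and -1.32 without wild-type 2. Counted on a single strand it was -0.65 with column 3 and -1.98 with column 4. Its mean level per kb exceeded that of 16.3% of tested genes.

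Pramel7, the member whose protein acts on UHRF1, had 26 and 12 reads in the wild-type and 3 and 5 in the knock-in libraries. In CPM these are 0.944 and 0.545 against 0.123 and 0.268. The groups did not overlap, but the exact 95% Poisson intervals, which cover counting error only, ran from 0.282 to 0.952 CPM in wild-type 2 and from 0.0869 to 0.625 in knock-in 2, and so crossed. Its log2 fold change was -1.97 (SE 0.64), -1.5 without wild-type 1 and -2.31 without wild-type 2. It entered the fit through its wild-type reads alone, so a lower knock-in value was built into its being tested. Its mean level per kb was above 7.45% of tested genes. At this depth its size of difference is poorly fixed.

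Pramel4 and Pramel5, known from early embryos, could not be compared. Pramel4 had 0 reads in every library, which, at 3 counts, allows a level of up to 0.109 CPM in wild-type 1 and up to 0.161 CPM in knock-in 2. That limit holds for reads unique to the gene only, and its transcript is nearly all repeated in Gm13102, which also had 0 reads. Pramel5 had 1 read, in knock-in 1. Neither value shows absence.

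Of the 6 members in the fit, all had lower values in both knock-in than in both wild-type libraries, as did 23.9% of all tested genes (groups stood apart in either direction in 47.4%), and their median log2 fold change was -1.64 against 0.00098 for all tested genes. A log2 fold change below 0 was found in 49.9% of tested genes. In edgeR's quasi-likelihood test 1 of the 6, Gm13128, passed an adjusted p of 0.05, as did 0.0658% of all tested genes (10 of 15191), and 0.0592% passed as lower (9 of the 10). Nothing is read from these counts, since the same contrast chose the genes. The number of members passing moved with the libraries: it was 4 without wild-type 1 and 4 without wild-type 2 (Gm13128, Pramef17, Pramef8 and Pramef12), and 2 without knock-in 1 and 2 without knock-in 2 (Gm13128 and Pramef17), but the count over all genes rose at the same time, to 5015, 711, 17 and 16. Gm13128 did not pass with limma-voom, where the log2 fold change was -2.35, or with column 3 counts, where it was -1.99.

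By name the tables held 54 genes of the family, 46 besides the 8, with 29 of the 54 on chromosome 4. The antisense Pramef12os is among them by its symbol, while near copies such as Gm13102 and Gm13040 carry no family name and are not counted. Of the 46, 41 were too low to test, with at most 17 reads in a library, and 28 of these had no read at all. For the other 5, none passed in edgeR, DESeq2 or limma-voom, against 10, 106 and 4 of all 15191 tested genes. None of the 5 had an unadjusted p under 0.05 in edgeR, against 1662 of all tested genes. Of the 5 log2 fold changes 4 were above 0, with a median of 0.25. Pramef25 had 1.34 and 1.41 CPM in the wild-type and 2.01 and 1.87 in the knock-in libraries, for which the log2 fold change was 0.50 (SE 0.33). Gm12794 had a value of 0.34 (SE 0.31), Gm12800 of 0.25 (SE 0.38) and Gm13119 of 0.22 (SE 0.33), the latter pair with overlapping groups. Pramel1, known from testis, had 3.81 and 3.95 against 3.0 and 3.53 CPM, with a log2 fold change of -0.25 (SE 0.26) and no overlap. Whether the members and these genes differ in their response was not tested, since the choice of members fixed one side. Reads of the close copies Gm12800 and Gm12794 (96.8% coding identity) and Pramef25 and Gm13119 (96.9%) may likewise be missing, and the value of Pramef25 was 1.05 with column 3 and -0.022 with column 4 counts alone.

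**Figure D4:**
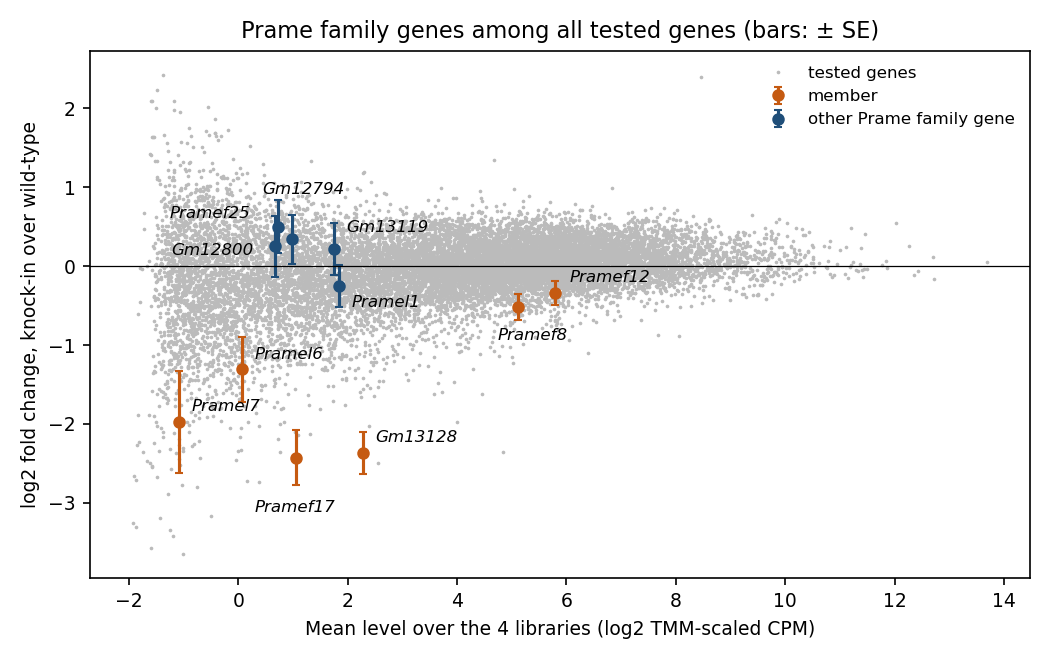
Log2 fold change of knock-in over wild-type against the mean level in log2 CPM for all tested genes (grey), the 6 members in the fit (orange) and 5 other Prame family genes (blue), with bars of 1 SE. Gm13128 and Pramef17 lie near -2.4, and Pramel7 and Pramel6 lie among the spread of low genes. The members were chosen with this comparison known, so their place among all genes is a description only.

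Summed, the 54 genes had 128.5 and 130.4 CPM in the wild-type and 95.9 and 94.3 CPM in the knock-in libraries. The 8 members supplied 90.5% and 89.5% of these reads in the wild-type and 85.6% and 83.5% in the knock-in libraries. Most came from Pramef12 and Pramef8, while Gm13128 gave 6.13% and 6.37% in the wild-type and 1.80% and 1.48% in the knock-in libraries.

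Along the chromosome, members with large differences stood next to family genes with small ones. From Pramel1 to Pramef12 there are 25 of the 54 genes, of which 7 were tested, and Pramef8 to Pramef12 spans 0.996 Mb. Pramef17, with a log2 fold change of -2.42, lies 40.1 kb from Pramef25, with 0.50. Gm13128, with -2.36, lies 24.5 kb from Gm13119, with 0.22, and this gene lies 27.3 kb from Pramef12, with -0.34. At the cluster's edge Pramel1 and Pramef8 are 12.3 kb apart, with -0.25 and -0.52. Outside the family, 5 tested genes lay within 200000 bases of the stretch from Pramef8 to Pramef12. Their log2 fold changes were 0.058 (SE 0.17) for Prdm2, -0.94 (SE 0.46) for the pseudogene Gm13050, 0.34 (SE 0.26) for Pdpn, -0.011 (SE 0.53) for Anp32b-ps1 and -0.19 (SE 0.29) for Gm13127. Gm13050 had 1.199 and 1.181 against 0.780 and 0.428 CPM, the only one of the 5 whose groups did not overlap.

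**Figure D5:**
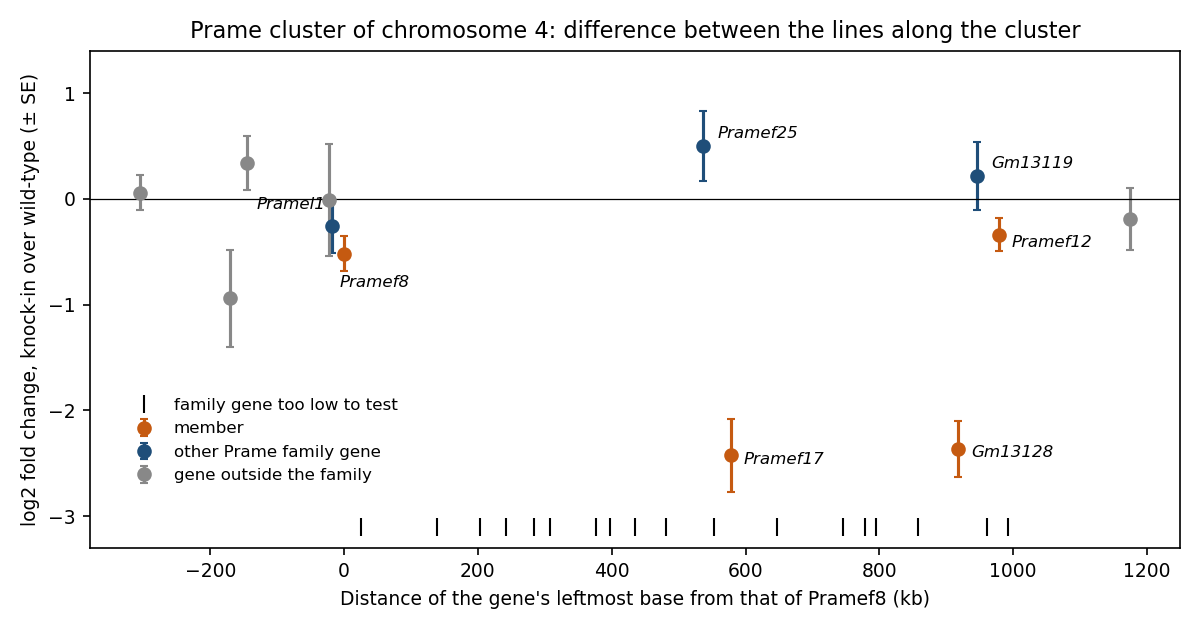
Log2 fold change of knock-in over wild-type (bars of 1 SE) against the distance in kb of each gene's leftmost base from that of Pramef8, for members (orange), other family genes (blue) and genes outside the family (grey). Ticks at the bottom are family genes too low to test. Pramef17 and Gm13128 lie far below their neighbours Pramef25 and Gm13119.

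Genes tied to the known roles of the family are given beside all 15191 tested genes. Of these, 10 (0.0658%) passed in edgeR, 106 in DESeq2, 4 in limma-voom and 180 with the GC correction. An unadjusted p under 0.05 in edgeR was found for 1662. Passing was so rare that 0 in a short list does not show that its genes were unchanged. Of 11 genes of UHRF1 and DNA methylation, 0 passed in edgeR, DESeq2 or limma-voom and 1 had an unadjusted p under 0.05, with 9 log2 fold changes above 0 and a median of 0.11. The RNA of Uhrf1, whose protein is the target of PRAMEL7, had 865 and 1099 CPM in the wild-type and 999.3 and 974 in the knock-in libraries. These groups overlapped, and UHRF1 protein was not measured here. The log2 fold change of Uhrf1 RNA was 0.0067 (SE 0.16), and its sign depended on the settings. Dnmt1, the maintenance methyltransferase, had a value of 0.047 (SE 0.14). Of 11 genes of the cullin 2 ligase, 0 passed by any of the 3 tools, 1 had an unadjusted p under 0.05 and the median was 0.078. Fem1b, another substrate receptor, had 0.086 (SE 0.14), Elob, the elongin B gene, -0.14 (SE 0.19), and Cul2, the scaffold, 0.23 (SE 0.17). Of 13 genes of LIF and STAT3 signalling, 0 passed by any of these tools and 1 with the GC correction, 1 had an unadjusted p under 0.05 and the median was 0.083. Gbx2, a homeobox gene, had the largest value of this list, with 18.3 and 20.8 against 35.6 and 30.8 CPM and a log2 fold change of 0.76 (SE 0.18). Tfcp2l1, a STAT3 target, had 0.20 (SE 0.14) and Pim3, a kinase of the same pathway, 0.083 (SE 0.16).

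Markers of cell types in which Prame genes are known, or that a culture could hold, were read in the same fit. Of all 15191 tested genes, 1662 had an unadjusted p under 0.05 in edgeR. In DESeq2 106 of them (0.698%) passed, in limma-voom 4 (0.0263%) and with the GC correction 180 (1.18%). For the 2-cell-like state, 15 of 16 tested markers had log2 fold changes above 0 and 0 passed in edgeR, DESeq2 or limma-voom, with 3 at an unadjusted p under 0.05 and a median of 0.45. Most of these 16 were Zscan4 and Usp17l family genes of chromosome 7. They may not be separate markers, and reads shared between them were not examined. The summed level of that list was 96.1 and 85.7 CPM against 131 and 114 CPM in the knock-in libraries, opposite in direction to the members. Germ cell and oocyte markers summed to 146 and 110 CPM against 115 and 119 CPM, with 7 of 10 tested, 0 passing by any of the 3 tools, 2 at an unadjusted p under 0.05 and a median of -0.099. Endoderm markers summed to 779 and 870 against 558 and 558 CPM, with 8 of 9 tested markers below 0, a median of -0.55, 0 passing in edgeR or limma-voom, 2 in DESeq2, 2 with the GC correction and 6 at an unadjusted p under 0.05. Fibroblast and feeder markers summed to 38.2 and 40.4 against 23.7 and 26.2 CPM, with 4 of 5 tested markers below 0, 0 passing by any of the 3 tools, 3 at an unadjusted p under 0.05, and Lum at 0 in every library. Trophoblast markers summed to 80.7 and 84.4 against 78.9 and 74.5 CPM, and of the 5 tested 1 passed as lower, the keratin gene Krt19, with 21.4 and 18.6 against 7.14 and 6.10 CPM. In that list 1 passed in DESeq2, 0 in limma-voom and 2 with the GC correction, and 3 had an unadjusted p under 0.05. The endoderm and fibroblast sums thus moved in the same direction as the members, and their part in the members' values was not tested. Most of the endoderm sum came from Sparc (390 and 442 against 328 and 304 CPM) and Lama1 (210 and 260 against 150 and 171 CPM). Among the transcription factors of that list, Hnf4a was at -0.98 without overlap. Gata4 was at 0.22 and Gata6 at -0.43, both with overlapping groups, and Sox17 and Foxa2 were too low to test. In these bulk libraries fewer cells that express a gene and less RNA per cell cannot be told apart.

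The genes most like Gm13128 across the 4 libraries were found by the root mean square difference of log2 (CPM + 0.1), centred on each gene's mean. No tested gene was closer to it than Pramef17, at 0.062, but the counts of these near copies may not be separate measurements. Outside the family the 5 closest were Mest (0.117), Adm (0.151), Rhox13 (0.177), Rhox5 (0.188) and Gm26660 (0.219). Mest, an imprinted gene, had 41.0 and 54.3 against 10.2 and 8.46 CPM, and Rhox5, an X-linked homeobox gene, had 23.2 and 28.1 against 7.19 and 5.84 CPM. Those closest to Pramel7 were AI662270 (0.111), Cacna1h (0.120), Cyp26b1 (0.130), Gm48796 (0.131) and Hormad2 (0.132). AI662270, Cyp26b1 and Gm48796 entered the fit through their wild-type reads alone, as did Pramel7 itself. The same holds for Adm and Gm26660 in the list of Gm13128. A lower knock-in value was thus built into their being tested. Hormad2, a meiotic chromosome gene, had 7.63 and 5.04 against 2.01 and 2.78 CPM. With only 4 libraries, many genes share such a pattern: 208 tested genes were closer to Gm13128 than Pramel7 was. With a pseudocount of 1 CPM, chosen after seeing the data, 2 of the 5 genes named for Gm13128 and 0 of the 5 for Pramel7 stayed among the closest.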

How the data were processed

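Each deposited table holds counts of reads per gene, not normalized, which the authors produced with STAR 2.5.3a after Trim Galore on GRCm38 (mm10), per the submitters' processing notes. The annotation release is not given in the sources used here, and 54809 of 54838 identifiers matched GENCODE M21. The unstranded column was used, since the strand columns split evenly (50.2% to 50.5% in column 4). Multimapping reads (3.80% to 4.46% of reads) and reads ambiguous between genes (5.96% to 6.38%) were unassigned by the authors and stayed out of library sizes and tests, which matters for near-identical copies.

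Assigned counts came to 26553998 (wild-type 1), 21791128 (wild-type 2), 25266051 (knock-in 1) and 18946731 (knock-in 2). All genes were fitted with edgeR 4.0.16 in R 4.3.3 (TMM scaling, filterByExpr with a minimum count of 10, quasi-likelihood F test, genotype alone as a term, Benjamini-Hochberg adjustment over 15191 genes). Standard errors were worked out from each gene's log2 fold change and its F statistic. CPM per kb divides CPM by the length of the merged exons. In simulated counts of this comparison (14925 genes, common dispersion 0.0237), 67% of 2-fold and 98% of 4-fold planted changes were recovered. Changes were planted only in genes with a mean above 1 CPM, a level that Pramel7 (0.47 CPM over all libraries) did not reach. Of 172 calls 7 were false. Whether these shares hold for the measured counts, with the wide spread of the wild-type pair, was not tested. In the measured counts Gm13128, 5.20-fold lower in knock-in cells, passed in edgeR and Pramef17, 5.44-fold lower, did not.

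Coding sequences came from the GENCODE transcripts and were aligned globally with Biopython 1.88. Upstream windows came from RefSeq (GRCm38.p6) and were matched by symbol for 7 of the 8 members. Family genes were found by name, not by sequence: those with RefSeq symbols beginning with Prame or Oog, matched by Entrez number, by name or, for Gm12800, by identical coordinates, plus GENCODE symbols of that form. The members and lists were chosen with earlier results of these data known. Named besides the members were each other tested family gene, up to 4 genes per list, those passing first and then by level, and the 5 genes most like Gm13128 and Pramel7. Gbx2, the named endoderm and fibroblast markers, the genes beside the cluster and the examples among the most similar genes were chosen after their values were seen. Alternatives were DESeq2 1.42.0 and its size factors, limma-voom (limma 3.58.1), no filter and a stricter one, single-strand columns, the replicate number as a block, a GC correction and leaving out each library.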

Additional observations from a re-analysis of the deposited data

How the results depend on the processing

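No member changed direction under any setting run. Over all settings the log2 fold change of Gm13128 lay between -2.83 and -1.99, of Pramef17 between -2.63 and -2.30, of Pramel6 between -1.98 and -0.65, of Pramef8 between -0.58 and -0.47 and of Pramef12 between -0.43 and -0.30. That of Pramel7 lay between -2.56 and -1.49 over the settings in which it was tested, which leave out the stricter filter and the single-strand columns. The order of the levels was the same in CPM and in CPM per kb, but with column 3 alone Pramel6 (0.839 and 0.4998 CPM) lay above Pramef17 (0.610 and 0.2999 CPM) in the knock-in libraries. Low depth limits Pramel7, Pramel4 and Pramel5, and repeated sequence limits Gm13128, Pramef17 and Pramel4. Members with at least 10 reads in every library numbered 3 with column 3 alone and 2 with column 4 alone, against 5, and these columns hold about equal shares of the reads.

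Members past the threshold numbered 1 in the main analysis and 0 with limma-voom and with column 3 alone. They numbered 2 with DESeq2 size factors, no low-count filter, the DESeq2 test or the GC correction. Genes past the threshold numbered 10, against 354 with no low-count filter, 106 with the DESeq2 test, 4 with limma-voom, 180 with the GC correction and 16 to 5015 without each library in turn. Where a library is left out, the spread is that of the pair still complete, and the lone library is assumed to vary like it. The cause of the shifts between the other settings was not tested. None of the other family genes passed in any setting.

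With the replicate number as a block, 197 genes (1.3%) and 2 members passed, and with the block and the GC correction together 403 genes (2.65%) and 3 members. Same-numbered libraries did not deviate together (correlation of deviations from the group means -0.116). The labels do not say whether they were prepared together, and a correlation from 2 libraries per line cannot decide it. With the crossed pairing of the numbers, chosen after seeing the data, 509 genes (3.35%) and 2 members passed.

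Small values of genes outside the 8 changed sign, and the cause was not tested. Pramef25 and Gm13119 were at -0.022 and -0.033 with column 4 alone (Pramef25 at 1.05 with column 3), and Gm12800 at -0.033 with column 3 alone. Uhrf1 was at -0.014 with no filter, -0.018 with the stricter filter, -0.0096 with column 3 and -0.027 with column 4. With the GC correction, Elob was at 0.13 and Cul2 at -0.031, and with the block added at 0.13 and -0.030. Without each library in turn the values ran from -0.087 to 0.52 for Gm13119, -0.10 to 0.74 for Gm12800, -0.15 to 0.18 for Uhrf1, -0.028 to 0.11 for Dnmt1, -0.011 to 0.17 for Fem1b, -0.37 to 0.12 for Elob and -0.057 to 0.23 for Pim3.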
